A study of Homo sapiens with 5 samples.

Results

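Chromatin precipitated with an ATF3 antibody from ATF3-knockout HCT116 cells still gave a list of 2231 peaks, of which 2098 lay on chromosomes 1 to 22 and X. A total of 1318 of these 2098 peaks (62.8%, 95% Wilson interval 60.7 to 64.9) had their centre within 2 kb of a transcription start site (TSS) of a protein-coding gene. These 1318 promoter peaks, defined by their position, are described here. They are a small part of the 123989 peaks in the 5 lists of the series. HCT116 is a human colon cancer cell line, and the ATF3-KO line was derived from it by homologous recombination with an adeno-associated virus vector that disrupted exon 3 of both ATF3 alleles, so the knockout is 1 derived line. The 3 ATF3 libraries came from ATF3-WT cells given DMSO (ATF3-Ctrl), ATF3-WT cells given 1.5 µM camptothecin for 4 h (ATF3-CPT), and ATF3-KO cells given DMSO (ATF3-KO). Camptothecin is a topoisomerase I poison that damages DNA. The other 2 libraries used a p53 antibody, in camptothecin-treated p53-WT cells (p53-CPT) and in DMSO-treated p53-KO cells (p53-KO). All cells were fixed with 1 mM di(N-succinimidyl) glutarate for 45 min and then with 1% formaldehyde for 10 min.

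Each condition was 1 library, so no comparison between conditions has a replicate check and no p-value is given. The ATF3-Ctrl, ATF3-CPT and ATF3-KO libraries held 12947516, 15457013 and 12820520 tags (mapped reads), and the p53-CPT and p53-KO libraries only 3169743 and 1984941. All intervals are 95% intervals. Those of levels and single ratios cover counting error of tags only. Those of shares and medians are taken over peaks, as if the peaks were independent. None covers the spread between cultures. The level of a peak is its normalized tag count, the number of tags in the peak scaled to 10000000 tags per library, and every level below is in this unit. The peak caller chose a window for each library, and the ATF3-KO window was 1.57 times as wide as the ATF3-Ctrl window and 1.60 times as wide as that of ATF3-CPT. The knockout changed exon 3, and a list of peaks holds no direct check of it. The paper reports from Western blots that the knockout cells made no ATF3, with or without camptothecin. At the ATF3 promoter itself the ATF3-KO list had 0 peaks, while ATF3-Ctrl had 3 (the highest at a level of 313.6) and ATF3-CPT had 4 (the highest at 278.8).

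ATF3 is a stress-induced basic leucine zipper protein of the ATF/CREB family. Members of this family, among them CREB1, ATF1, CREM and ATF2, bind as dimers to the palindromic cAMP response element (ATF/CRE), whose core is TGACGTCA, and CREB-type proteins also bind one side of the palindrome, TGACG, called the short site below. The related AP-1 dimers of JUN and FOS proteins prefer TGACTCA, which is the same core one base shorter. In mammalian genomes ATF/CRE sites lie mostly in CpG-rich promoters close to the TSS, and because CRE contains a CpG it is sensitive to DNA methylation.

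The sequences below were read from GRCh37 (the hg19 build of the files). They come from high promoter peaks of the knockout cells, chosen because they held a core or a short site. They do not show how common these sites are. Among the highest peaks, those of TRIAP1 (level 86.6) and MTRNR2L1 (81.9) held neither. First come the 10 highest promoter peaks with an exact ATF/CRE core, each as 30 bases of the plus strand around the core, which is in capitals.
CTU2, chr16:88772805-88772834: ctgcgccgcgcTGACGTCAtcgtagggcgc
MAPKAPK5, chr12:112279764-112279793: gtccgggcctaTGACGTCAttagcgcagcg
DDX51, chr12:132628966-132628995: acgcgcagtggTGACGTCAcgggagcgccg
MTHFSD, chr16:86588830-86588859: ctggcgcgtagTGACGTCAcccgctccgcg
RRP1, chr21:45209391-45209420: gtcgcgggctgTGACGTCAcgccacgcgcc
MRM3, chr17:685551-685580: gccacgggccgTGACGTCActagccgccga
RMDN3, chr15:41047441-41047470: gtcagtgaccgTGACGTCAggcaggcggcg
RBM42, chr19:36119903-36119932: gcccgaatgtaTGACGTCAtgcgccagcgc
HAUS5, chr19:36103619-36103648: tggcgcgcccgTGACGTCAgaggcgggcgc
TMEM39A, chr3:119182476-119182505: gcgcacggcgaTGACGTCAgctacgcgacc

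The next lines show high promoter peaks that had no exact core but held the short site, which is in capitals, on the strand where it reads TGACG.
ANAPC2, chr9:140083043-140083072, plus strand: cacgcgcagccaTGACGcgcacaaggcgct
TBL3, chr16:2022011-2022040, minus strand: cgcgcgaccactgTGACGtccccgccggcg
CWC25, chr17:36981615-36981644, plus strand: gtcgcggaacgaTGACGtacagggctcggt
TRMT61B, chr2:29093163-29093192, plus strand: gtcgcagacgagTGACGcaagcctagcgcg
MRPL55, chr1:228296982-228297011, minus strand: cagcgcctgccagTGACGtcgtgggctgca
NUP153, chr6:17707147-17707176, minus strand: gggcgccgatgagTGACGacattctggctc

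An exact ATF/CRE core lay in 112 of the 1318 promoter peaks (8.50%, interval 7.11 to 10.1), searched on both strands of the 199 bases from start to end. The same length of sequence held the core at 1.87% of TSSs (1 per protein-coding gene, 20098 windows), at 1.22% of all 146039 protein-coding TSSs, in 2.31% of the 780 ATF3-KO peaks outside promoters, and in 0.0759% of windows shifted by 1000 bp from the promoter peaks. Of the promoter ATF3-Ctrl peaks that had no ATF3-KO peak, 4.03% held it within the same length around their centre (interval 3.65 to 4.45). The corresponding share of promoter ATF3-CPT peaks was 2.84%. The interval of the core share of the knockout promoter peaks thus lay above the share of each of these sets. The sets were not matched with the members in level or in distance to the TSS. The part of these in the differences was not tested. With 1 mismatch allowed, 21.9% of the promoter peaks and 8.84% of the 1-per-gene TSS windows had a match.

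The short site TGACG, which is also part of every core, was in 659 members (50%, interval 47.3 to 52.7). It was in 21.1% of the 1-per-gene TSS windows, in 32.0% of promoter ATF3-Ctrl peaks without an ATF3-KO peak and in 13.3% of the other ATF3-KO peaks. A total of 254 members (19.3%) held at least 2 copies, counting both strands, so that a core counts for 2. The sites sat near the middle of the peaks. The core was a median of 20.5 bp from the peak centre, and within 50 bp of it in 94 of 112 peaks. Where only a short site was present, the nearest copy was a median of 27 bp from the centre and within 50 bp in 408 of 547 peaks.

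The AP-1 core TGACTCA (read on both strands, so TGAGTCA as well) behaved differently. It lay in 28 promoter peaks of the knockout cells (2.12%, interval 1.47 to 3.05), near the 2.62% of TSS windows. In contrast, it was in 18.1% of promoter ATF3-Ctrl peaks without an ATF3-KO peak (interval 17.3 to 18.9) and in 24.4% of such ATF3-CPT peaks (interval 23.8 to 25.1). Other promoter sequences were also counted. The GC box GGGCGG, bound by SP1-type factors, was in 57.1% of the members and 46.5% of TSS windows. The ETS-type site CCGGAAG was in 19.2% against 10.1%, and CCAAT, bound by NF-Y, in 18.8% against 25.7%. The median GC content of the members was 67.8%, compared with 63.3% in the TSS windows and 47.2% in the other ATF3-KO peaks. The part of GC content, level or distance to the TSS in these shares was not tested.

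The share of peaks with a core rose with the level of the peak in the knockout cells. When the members were ordered by level and divided into 5 groups of about equal size, it was 3.41% in the lowest group (264 peaks, level 7 to 8.6), then 6.06%, 6.08% and 10.2%, and 16.7% in the highest group (263 peaks, level 17.9 to 309.7, interval 12.7 to 21.7). The short site went from 31.4% in the lowest group to 68.8% in the highest. The interval of the lowest group for the core, 1.80 to 6.35, held the 1.87% of TSS windows, whereas the short site of that group (interval 26.1 to 37.3) was above the 21.1% of TSS windows.

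**Figure D1:**
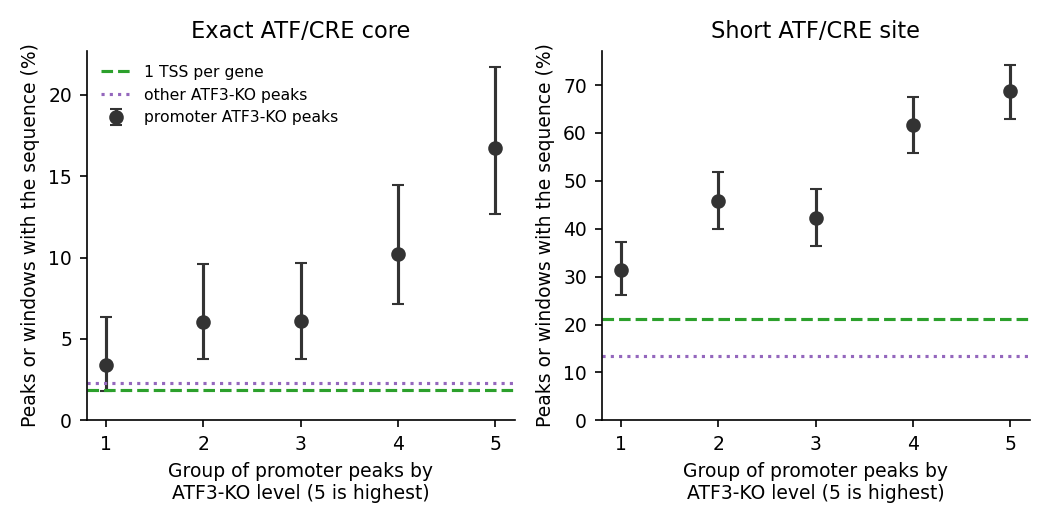
Share of promoter ATF3-KO peaks (y axis, percent) with an exact ATF/CRE core (left) or a short site (right) in 5 groups of the peaks ordered by ATF3-KO normalized tag count (x axis), with 95% Wilson bars. The dashed line is the share in windows at 1 TSS per protein-coding gene and the dotted line that in ATF3-KO peaks outside promoters. The core share goes from 3.41% to 16.7% and the short-site share from 31.4% to 68.8%.

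Most promoter peaks of the knockout cells lay on the TSS itself. The median distance from peak centre to the nearest TSS was 37 bp (interval 34 to 41, quartiles 11 and 90), compared with 112 bp for the 10433 promoter peaks of ATF3-Ctrl (interval 106 to 118) and 169.5 bp for the 18054 of ATF3-CPT (interval 163 to 177). A share of 77.7% lay within 100 bp (interval 75.4 to 79.9), against 48.2% in ATF3-Ctrl and 41.1% in ATF3-CPT, and 30 members were more than 1 kb away. The centre was upstream of the TSS in 952 members (72.2%), with a median signed position of -22 bp. Among the 112 peaks with a core, 100 had their centre within 100 bp of the TSS. By annotation 511 centres were outside genes, 443 in a UTR, 232 in an intron, 72 in a coding exon and 60 in another exon. Protein-coding TSSs on both strands within 1 kb of the centre, as at divergent promoters, were found for 269 members (20.4%, interval 18.3 to 22.7). The share was 16.1% around the starts of 20098 protein-coding genes (interval 15.6 to 16.6). For promoter ATF3-Ctrl peaks it was 11.1% (interval 10.5 to 11.7). Of those ATF3-Ctrl peaks 85.5% had a TSS within 1 kb, against 97.7% of the members. The part of this in the shares was not tested. The members near the limit of 2 kb were those of GSE1 (1887 bp downstream) and SPSB2 (1857 bp upstream), and the nearest excluded peaks were 2063 bp upstream of COL17A1 (level 10.1) and 2077 bp downstream of CAMKK1 (level 8.6).

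**Figure D2:**
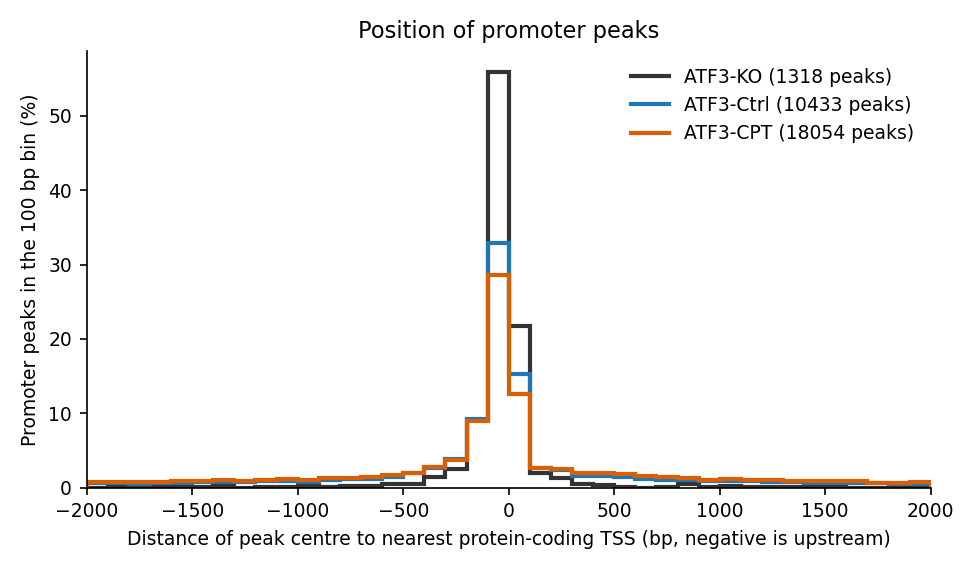
Distance from peak centre to the nearest protein-coding TSS (x axis, bp, negative is upstream) for promoter peaks of ATF3-KO, ATF3-Ctrl and ATF3-CPT, as the percentage of each library's promoter peaks in bins of 100 bp (y axis). The ATF3-KO peaks have the tallest bins next to the TSS, where 77.7% of them lie within 100 bp.

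Promoters made up 62.8% of the ATF3-KO list, but 31.1% of the ATF3-Ctrl list and 25.7% of the ATF3-CPT list. The promoter peaks of the knockout cells were low. Their median level was 10.9 (quartiles 9.4 and 16.4, range 7 to 309.7), which is 14 tags. The other ATF3-KO peaks had a median of 12.5 and reached 4720.6. The members had 1298 distinct nearest genes, of which 20 had 2 members each. Members per 100 protein-coding genes ranged from 4.29 on chromosome 6 to 10.3 on chromosome 16 among the autosomes, with 10.0 on chromosome 17. Chromosome X had 5 members among 869 genes, or 0.575 per 100. Of the 138 promoter ATF3-Ctrl peaks on X, 5 had an ATF3-KO peak (3.62%, interval 1.56 to 8.20), compared with 11.2% on the autosomes (interval 10.6 to 11.8). These chromosome values were not corrected for the number of chromosome copies in HCT116 cells, and its part in them was not tested.

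Nearly all members were also peaks in the wild-type cells. Overlap by at least 1 bp was found with an ATF3-Ctrl peak for 1155 members (87.6%, interval 85.7 to 89.3) and with an ATF3-CPT peak for 1211 (91.9%, interval 90.3 to 93.2). A total of 1125 members (85.4%) were matched in both, 30 only in ATF3-Ctrl, 86 only in ATF3-CPT and 77 (5.84%) in neither. The ATF3-KO peaks outside promoters were matched less often, by 15.5 percentage points for ATF3-Ctrl (Newcombe interval 11.9 to 19.1) and by 24.4 for ATF3-CPT (interval 20.9 to 28.1). All 112 members with a core were matched in both lists. Of the 659 members with neither core nor short site, 525 (79.7%) had an ATF3-Ctrl peak and 570 (86.5%) an ATF3-CPT peak. The 77 members without a match were low, with a median level of 8.6 and a highest of 16.4.

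Seen from the wild-type lists, 11.1% of promoter ATF3-Ctrl peaks and 2.43% of the other ATF3-Ctrl peaks had an ATF3-KO peak. The share depended on the wild-type level. With the promoter ATF3-Ctrl peaks divided by level into 10 groups, the lowest group had a share of 2.01% and the highest a share of 43.6% (interval 40.6 to 46.7), and for promoter ATF3-CPT peaks it went from 0.498% to 23.7%. Of the 200 highest promoter ATF3-Ctrl peaks, 90 had an ATF3-KO peak (45%, interval 38.3 to 51.9). Among those without one were the peaks of STK40, a kinase-like protein, at 356.1, PYCR1 of proline synthesis at 354.5, and ATF3 itself at 313.6. HERPUD1, an endoplasmic reticulum stress protein, was at 302.8, and the aminoacyl-tRNA synthetase genes YARS1 and GARS1 were at 267.2 and 244.8. SLC7A11, the cystine transporter, followed at 207.8, and CHAC1, which degrades glutathione, at 193.9. The ATF3-KO list starts at a peak caller score of 11, and its promoter peaks at a level of 7, so a site without a listed peak may still hold tags.

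**Figure D3:**
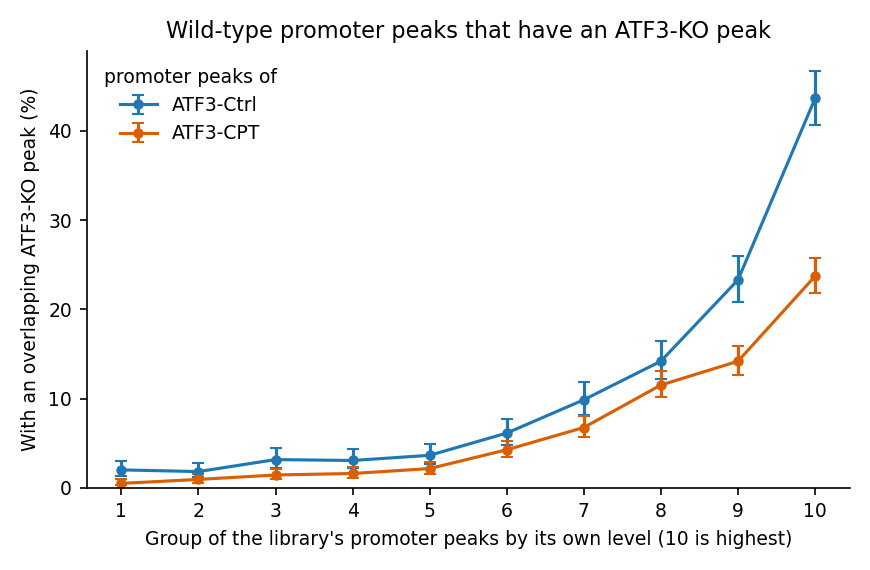
Share of promoter peaks of ATF3-Ctrl and ATF3-CPT that overlap an ATF3-KO peak (y axis, percent, 95% Wilson bars) in 10 equal groups of that library's promoter peaks ordered by its own normalized tag count (x axis). The share stays under 4% in the 5 lowest groups of both libraries and reaches 43.6% for ATF3-Ctrl and 23.7% for ATF3-CPT in the highest.

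The level at matched promoter peaks was in most cases higher in the wild-type library. The median ratio of ATF3-Ctrl over ATF3-KO was 1.81 (interval 1.72 to 1.91, quartiles 1.21 and 2.59, range 0.308 to 18.2, 1155 peaks), and 984 members (85.2%) had a ratio above 1. The interval of the single ratio lay above 1 for 540 members, below 1 for 4 and held 1 for 611. A ratio of at least 2 was seen for 493 members (42.7%), where 34.4% of all matched ATF3-KO peaks had one, and a ratio of at most 0.5 for 6 (0.519%), where 1.8% of all had one. ATF3-KO peaks outside promoters had a median ratio of 1.19. For ATF3-CPT over ATF3-KO the median was 2.09 (interval 2.02 to 2.15, 1211 peaks). A ratio of at least 2 was seen for 649 members (53.6%), against 44.6% of all matched ATF3-KO peaks, and a ratio of at most 0.5 for 5, against 6.33% of all. Outside promoters the median was 0.767. The 2 ratios share the ATF3-KO library. Matched peaks had to pass the caller's threshold in both lists, and the wider ATF3-KO window lowers the ratios. Per bp of window the medians were 2.84 and 3.33. Levels are scaled to all tags of a library, of which 5.6% lay in peaks in ATF3-Ctrl, 12.76% in ATF3-CPT and 0.56% in ATF3-KO. The part of this in the ratios was not tested.

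Across the matched members the order of levels was similar in knockout and wild-type cells, with a Spearman rho of 0.631 for ATF3-Ctrl (1155 peaks) and 0.580 for ATF3-CPT (1211 peaks). These describe 1 library of each condition, and the points share libraries, base composition and the caller's threshold.

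**Figure D4:**
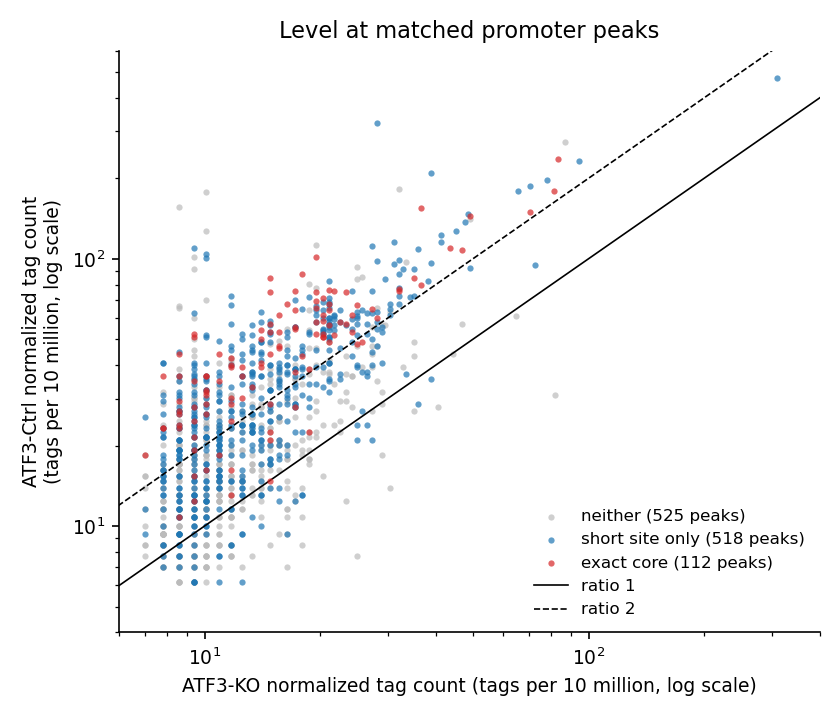
Normalized tag count in ATF3-Ctrl (y axis) against ATF3-KO (x axis), both in tags per 10000000 on log scales, for the 1155 promoter ATF3-KO peaks with an ATF3-Ctrl peak, colored by the sequence they hold. The solid line marks a ratio of 1 and the dashed line a ratio of 2, and the peaks with an exact core lie mostly above the dashed line.

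Between DMSO and camptothecin the members differed less than ATF3 sites at large. At the 1125 members matched in both wild-type lists, the median ratio of ATF3-CPT over ATF3-Ctrl was 1.17 (interval 1.14 to 1.20). It was 1.46 over all promoter ATF3-Ctrl peaks that had an ATF3-CPT peak and 1.81 over all such ATF3-Ctrl peaks. A ratio of at least 2 was seen for 121 members (10.8%), against 30.1% of shared promoter ATF3-Ctrl peaks and 44% of all shared ATF3-Ctrl peaks. A ratio of at most 0.5 was seen for 4 (0.356%), against 1.24% and 2.04% in the same order. Neither value says how ATF3-KO cells would respond, because the knockout cells in this series were given DMSO only. The sets compared were not matched in level or in distance to the TSS. The median ATF3-Ctrl level was 22.4 over the 1155 members with an ATF3-Ctrl peak and 10 over all promoter ATF3-Ctrl peaks. Shared peaks also had to pass the caller's threshold in both wild-type lists. The part of level, threshold and distance in these ratios was not tested.

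The sequence in the peak went along with the size of the difference between wild-type and knockout cells. Members with an exact core had a median level of 14.8 in ATF3-KO (interval 14 to 17.2), 47.5 in ATF3-Ctrl (39.4 to 52.5) and 60.5 in ATF3-CPT (54.3 to 66.6). Their median ratio of ATF3-Ctrl over ATF3-KO was 2.90 (interval 2.63 to 3.04). The 547 members with a short site but no core had a median level of 12.5 in ATF3-KO and a median ratio of 2.12 (interval 1.99 to 2.19, 518 matched). The 659 members with neither had 10.1 and 1.35 (interval 1.28 to 1.41, 525 matched). These 3 intervals, taken over the peaks of single libraries, did not overlap. For ATF3-CPT over ATF3-KO the medians were 3.65, 2.38 and 1.66 in the same order. The 28 members with an AP-1 core had a low median level of 9.75 in ATF3-KO but 58.9 in ATF3-CPT. Their median ratio of ATF3-CPT over ATF3-Ctrl was 2.07 (interval 1.66 to 2.62), above the 1.27 of members with an ATF/CRE core (interval 1.16 to 1.42). Their peak centres were also farther from the TSS, at a median of 117 bp against 29 bp.

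**Figure D5:**
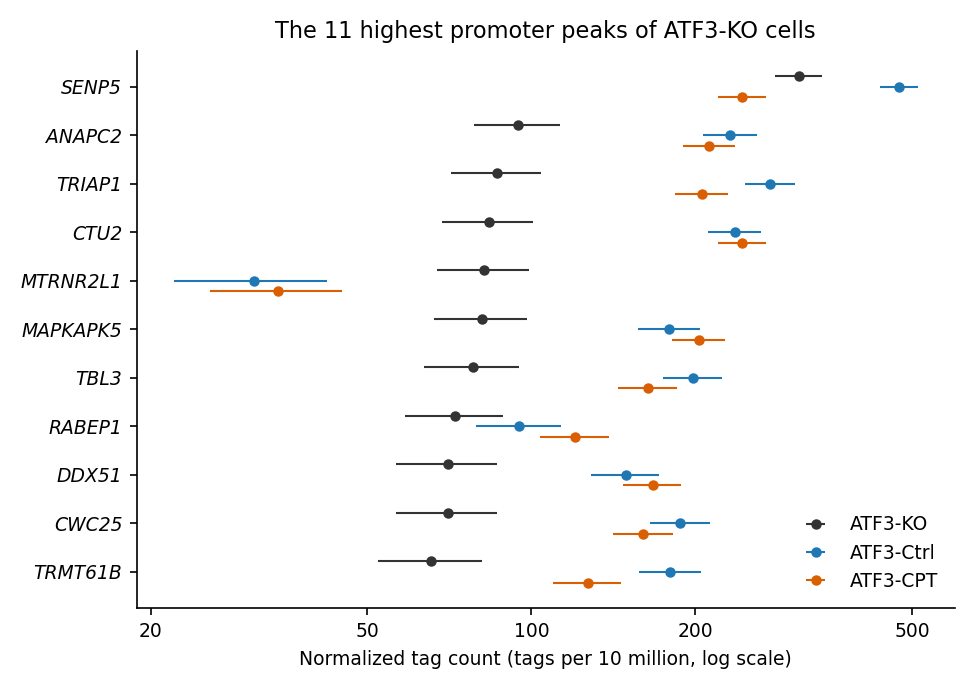
Normalized tag count (x axis, tags per 10000000, log scale) of the 11 highest promoter ATF3-KO peaks in ATF3-KO, ATF3-Ctrl and ATF3-CPT, named by the nearest protein-coding gene (y axis), with exact 95% Poisson bars for counting error. ATF3-KO is the lowest of the 3 libraries for 9 genes. MTRNR2L1 has its highest level in ATF3-KO and SENP5 its lowest in ATF3-CPT.

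The highest member, at 309.7 in ATF3-KO, 472.7 in ATF3-Ctrl and 243.9 in ATF3-CPT, lay 1183 bp upstream of a start site inside SENP5, a gene for a SUMO protease. It was also a peak with the p53 antibody, at 369.1 in p53-CPT and 387.9 in p53-KO, so it was listed in all 5 libraries. Its GC content was 39.7%, against a median of 67.8% over the members. It held 1 short site, in a stretch in which CATTC recurs (chr3:196625702-196625731, plus strand: caattcattcgaTGACGattccattcaatt). Repeats were not masked, and how surely tags can be placed at this peak was not tested. A separate member 23 bp upstream of the main SENP5 start was at 32 in ATF3-KO, 72.6 in ATF3-Ctrl and 67.9 in ATF3-CPT, and was no p53 peak.

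Of the next 8 members, 6 were lower in ATF3-KO than in either wild-type library by more than counting error, and the others, at MTRNR2L1 and RABEP1, are described further on. The peak between ANAPC2, the cullin subunit of the anaphase-promoting complex, and SSNA1 was at 94.4 in ATF3-KO, 231.7 in ATF3-Ctrl and 212.2 in ATF3-CPT. Its ratio of ATF3-Ctrl over ATF3-KO was 2.45 (exact interval 1.98 to 3.06). TRIAP1, which encodes a p53-regulated inhibitor of apoptosis, had a peak at chr12:120884101-120884299, 13 bp upstream of its TSS, with 86.6, 274.2 and 205.7, with a p53-CPT level of 460.6 and no p53-KO peak. Its peak held neither core nor short site, and it was the highest such member. CTU2, for a protein of tRNA thiolation, had 83.5, 236.3 and 243.9, and its ratio for ATF3-Ctrl was 2.83 (interval 2.27 to 3.56). For MAPKAPK5, a stress-activated kinase, the levels were 81.1, 179.2 and 203.1. TBL3, of the small-subunit processome that makes ribosomal RNA, had 78, 197.7 and 163.7. The peak shared by DDX51 and NOC4L, both genes of ribosome assembly, had 70.2, 149.1 and 166.9. All of these differences between ATF3-KO and each wild-type library were larger than counting error.

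CWC25, a splicing factor, had 70.2 in ATF3-KO, 187.7 in ATF3-Ctrl and 160.4 in ATF3-CPT, and TRMT61B, a mitochondrial tRNA methyltransferase, had 65.5, 180 and 126.8. Among the 10 highest members with a core were RRP1 of ribosomal RNA processing (46.8, 108.1 and 96.4 in the same order) and MRM3, a mitochondrial ribosomal RNA methyltransferase (43.7, 109.7 and 111.9). RBM42, an RNA-binding protein, had 36.7, 155.2 and 97, with the largest ATF3-Ctrl ratio of these 10 at 4.23 (interval 3.07 to 5.95). MTHFSD had 49.1, 144.4 and 115.8. HAUS5 of the augmin complex, which nucleates spindle microtubules, held 2 cores and had 35.1, 85 and 109.3. The levels were 36.7, 79.6 and 87.3 for RMDN3, a tether of mitochondria to the endoplasmic reticulum, and 32, 75.7 and 88 for TMEM39A. For these 10 the ratio of ATF3-Ctrl over ATF3-KO lay between 2.12 (DDX51) and 4.23.

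At some high members the ATF3-KO and ATF3-Ctrl levels differed by less than counting error. RABEP1, a Rab effector of endosomes, had 72.5, 95 and 120.3, with a ratio of 1.31 (interval 0.992 to 1.73). The peak shared by RPL18 and SPHK2 had 46.8, 57.2 and 60.2, with a ratio of 1.22 (interval 0.857 to 1.75). Neither held a core.

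The 6 largest ratios of ATF3-Ctrl over ATF3-KO were at ZNF706 (8.6 in ATF3-KO, 156.8 in ATF3-Ctrl), NARS1, the asparaginyl-tRNA synthetase (10.1 and 178.4), MTHFD1L of mitochondrial folate metabolism (10.1 and 127.4), the ubiquitin ligase gene SIAH2 (9.4 and 109.7), GZF1 (28.1 and 321.3) and TSFM, a mitochondrial translation factor (9.4 and 101.2). Their ratios ran from 10.8 to 18.2. All but GZF1 were near the bottom of the ATF3-KO list, at 11 to 13 tags, and all but GZF1 and SIAH2 held no short site. GZF1 had 36 tags in ATF3-KO, a level of 318.3 in ATF3-CPT and a ratio of 11.4 (interval 8.13 to 16.6). Its peak, 201 bp upstream of the TSS and overlapping no exon, held 2 copies of the short site in a repeated stretch.
GZF1, chr20:23342519-23342717, plus strand: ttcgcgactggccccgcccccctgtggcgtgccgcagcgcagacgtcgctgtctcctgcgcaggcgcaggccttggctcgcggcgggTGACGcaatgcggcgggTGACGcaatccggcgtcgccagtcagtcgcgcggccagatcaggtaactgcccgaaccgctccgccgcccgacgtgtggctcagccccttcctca
The longer string TGACGCA, chosen after this sequence was seen, lay in 108 members (8.19%, interval 6.83 to 9.80) and in 2.10% of the 1-per-gene TSS windows.

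The largest ratios of ATF3-CPT over ATF3-KO were at GSE1 (8.6 in ATF3-KO, 65.6 in ATF3-Ctrl and 135.9 in ATF3-CPT), ZNF706 (122.9 in ATF3-CPT), CMIP (8.6, 38.6 and 121.6), SHTN1 (8.6, 66.4 and 121.6), TRMO, a tRNA methyltransferase (9.4, 51 and 132.6), and COTL1, an actin-binding protein (10.1, 70.3 and 133.9). These ratios ran from 13.3 to 15.8. GSE1, CMIP and COTL1 held an AP-1 core and lay 948 to 1887 bp from the TSS, and TRMO held an ATF/CRE core.

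Only 6 members had an ATF3-Ctrl level at or below 0.5 of the ATF3-KO level, and 2 of these were near genes of the MTRNR2L family. These genes are nuclear copies of mitochondrial DNA, so tags there cannot be placed with certainty. The larger MTRNR2L1 member, at chr17:22023673-22023871 in its UTR, had 81.9 in ATF3-KO, 30.9 in ATF3-Ctrl and 34.3 in ATF3-CPT, a ratio of 0.377 (interval 0.255 to 0.548). MTRNR2L10 on chromosome X had 25, 7.7 and 10.4. MTRNR2L6 had 16.4 in ATF3-KO and no wild-type peak, and was the highest unmatched member. A further MTRNR2L1 member was at 40.6, 27.8 and 29.1 and was a peak in both p53 libraries (164.1 in p53-CPT and 75.6 in p53-KO). Of the remaining low ratios, 2 had intervals below 1, at RGPD2, a member of a duplicated gene family, with 30.4 and 13.9, and at BANP with 16.4 and 7. For RPTOR (17.9 and 8.5) and CABIN1 (12.5 and 6.2) the interval held 1. The other members without any wild-type peak that stood highest were NFKB2 and CCDC47, each at 11.7, followed by TBC1D3, TBCD and LSM4 at 10.9, all with 14 or 15 tags.

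Few promoter peaks of the ATF3-KO cells overlapped a peak listed with the p53 antibody. An overlapping peak was listed for 42 members in p53-CPT (3.19%, interval 2.37 to 4.28) and for 14 in p53-KO (1.06%, interval 0.634 to 1.78). The other ATF3-KO peaks overlapped them in 25.9% and 20.9%, a difference of -22.7 percentage points (interval -26.0 to -19.6) and of -19.8 (interval -22.9 to -17.0). The p53 libraries had fewer tags, so a site without a p53 peak may hold tags below the threshold of those lists. That threshold was 7 tags in p53-CPT and 6 in p53-KO, where 1 tag is a level of 3.15 and 5.04. The members had a median level of only 10.9 in ATF3-KO, so a signal of that height could hardly be listed. The other ATF3-KO peaks had a median of 12.5 and reached 4720.6. The part of level in these differences was not tested. Sites that were peaks both with the ATF3 antibody in ATF3-KO cells and with the p53 antibody in p53-KO cells included, besides SENP5, the mucin genes MUC6 (15.6 in ATF3-KO and 35.3 in p53-KO), MUC3A (16.4 and 35.3) and MUC2 (14.8 and 40.3). ANAPC7 was at only 8.6 in ATF3-KO but at 2448.1 in p53-CPT and 3284.7 in p53-KO. WDR74 had 15.6 in ATF3-KO, 37.1 in ATF3-Ctrl, 12.3 in ATF3-CPT and 95.7 in p53-KO. These sites are named because of their values.

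By gene function, the members were compared with all 20090 protein-coding gene names, of which 1631 (8.12%) had an ATF3-KO peak within 2 kb of a TSS, 43.5% an ATF3-Ctrl peak and 59.6% an ATF3-CPT peak. Peaks here count for each gene within 2 kb, so that a divergent promoter counts for both genes. The gene lists were chosen with earlier results of these data known, and their shares are descriptions. Of 84 cytoplasmic ribosomal protein genes, 25 had a knockout peak (29.8%, interval 21.0 to 40.2) and 61 an ATF3-Ctrl peak. RPL18 was the highest, and RPL8 had 28.1 in ATF3-KO, 57.9 in ATF3-Ctrl and 78.3 in ATF3-CPT. RPLP2, whose shared promoter with PIDD1 held a core, had 21.1, 56.4 and 66.6. Of 78 mitochondrial ribosomal protein genes, 14 had a knockout peak (17.9%, interval 11.0 to 27.9), led by MRPL55 at 48.4, 147.5 and 138.4 and MRPL2 at 32, 68 and 65.3. The translation factor list had 6 of 25 (24%, interval 11.5 to 43.4). Among them EIF2S2, a subunit of initiation factor eIF2, had 19.5, 112.8 and 77.

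Splicing factors had 6 of 27 genes with a knockout peak (22.2%, interval 10.6 to 40.8). Among them U2AF1, which reads the 3' splice site, had 25, 57.2 and 59.5. SRSF2 shares its peak with MFSD11, at 14.8, 47.9 and 118.4. The proteasome list had 8 of 48 (16.7%, interval 8.70 to 29.6), among them PSMB2 at 30.4, 64.9 and 63.4 and PSMD12 at 17.2, 70.3 and 89.9. Zinc finger genes of the ZNF series had 56 of 508 (11.0%, interval 8.59 to 14.0), with ZNF337 at 23.4, 43.3 and 55 the highest. Heat shock and chaperone genes had 2 of 25. The share with an ATF3-Ctrl peak was 61.5% for mitochondrial ribosomal protein genes, 92% for translation factors and 77.8% for splicing factors. It was 64.6% for the proteasome list, 40.0% for the ZNF series and 60% for heat shock and chaperone genes, against 43.5% of all genes. Among genes with an ATF3-Ctrl peak, 13.3% of heat shock genes had a knockout peak. For the other lists just named this was 25.8% to 28.6%, and for all genes 17.9%.

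Regulatory gene lists held few genes, so their shares have wide intervals. The share with a knockout peak was 9.09% in the ATF and CREB family (interval 2.53 to 27.8). It was 30% in the AP-1 family (10.8 to 60.3), 18.2% in cAMP-responsive genes (7.31 to 38.5) and 17.2% in p53 targets (7.60 to 34.5). The 8.12% of all genes lay below the AP-1 interval, which rests on 10 genes, and inside the others. The ATF and CREB family had 2 of 22, CREM at 9.4 in ATF3-KO and CREB3 at 13.3, and 13 of the 22 had an ATF3-Ctrl peak. The AP-1 family had 3 of 10, MAFG, FOSB and FOSL1, at 13.3, 9.4 and 7.8, whereas all 10 had an ATF3-Ctrl peak. cAMP-responsive genes had 4 of 22, and 11 of the 22 had an ATF3-Ctrl peak. CCNA2, the cyclin A2 gene, held a core and had 20.3, 71.1 and 65.3, and the clock gene PER1, its paralog PER2 and the kinase gene SIK1 were between 7.8 and 10.9 in ATF3-KO. Of 29 p53 target genes, 5 had a knockout peak, which besides TRIAP1 were FDXR (17.2, 55.6 and 56.3), BAX (9.4, 12.4 and 22.6), PPM1D (8.6, 10.8 and 36.9) and POLH (7, 9.3 and 18.8). PPM1D held a core and was also a p53-CPT peak at 41, and POLH was one at 28.4. FDXR and BAX had no p53-CPT peak at the same place. Of the 29 p53 target genes, 26 had an ATF3-Ctrl peak.

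For 3 lists at most 1 gene had a knockout peak, against 8.12% of all genes in ATF3-KO and 43.5% in ATF3-Ctrl. Of 21 integrated stress response genes, 18 had an ATF3-Ctrl peak and 19 an ATF3-CPT peak, and only SLC3A2, an amino acid transporter subunit, had one in ATF3-KO, at 8.6 (4.76% of the list, interval 0.846 to 22.7). That peak overlapped no wild-type peak, although an ATF3-Ctrl peak of 38.6 lay elsewhere within 2 kb of a TSS of this gene. Immediate early genes had 0 of 20 (interval up to 16.1%), against 11 in ATF3-Ctrl and 15 in ATF3-CPT. Both intervals hold the share of all genes. Replication-dependent histone genes had 0 of 66 (interval up to 5.50%, below the share of all genes), against 36 in ATF3-Ctrl and 42 in ATF3-CPT. A count of 0 means that no peak passed the list's threshold, not that no tags were present.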

How the data were processed

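ChIP-seq of HCT116 cells was deposited as 1 HOMER peak list per condition. Per the file headers, the deposited values are a normalized tag count (signal, tags per 10000000), a findPeaks score (the caller's own value, which can be below or above the tags recovered from the normalized tag count) and a focus ratio (fraction of tags on the correct side of the center, deposited but not compared here). The authors aligned reads to hg19 with BWA 0.6.1 and called peaks with HOMER 4.1 per the submitters' processing notes, on each library alone, at an FDR of 0.001 and 4-fold over a local region of 10000 bp. The columns of p-values and fold over local background were not used.

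Promoter peaks as the set to describe, and the gene lists, were chosen with earlier results of these data known. Membership itself used position only. TSSs were those of all transcripts of protein-coding genes in GENCODE release 44 lifted to GRCh37. Where several peaks overlapped, the highest was taken. Tags were recovered from the normalized tag count and rounded. Shares have Wilson intervals, differences of shares Newcombe intervals, medians order-statistic intervals, levels exact Poisson intervals and single ratios exact conditional binomial intervals. A ratio was called at 2 or more, or 0.5 or less. Named genes were the 12 highest members, the 10 highest with a core, the 6 highest and lowest ratios, the 6 highest unmatched, those next to the 2 kb limit and up to 4 per gene list, besides those said to be named for their values. Some of these items are not reported here. Overlaps, distances, motif search and intervals were checked on simulated data. The analysis used Python with pandas, SciPy and pysam.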

Additional observations from a re-analysis of the deposited data

How the results depend on the processing

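The 8 values that answer the comparisons were recomputed under 36 alternatives, of which 19 stayed inside the main interval (or within 1.5 times the main count), 17 moved and 0 turned a ratio to the other side of 1. The number of promoter peaks stayed between 1156 (one TSS per protein-coding gene) and 1459 (TSSs of genes of every type), except that 359 of the 1318 had a score of at least 20 in ATF3-KO. The share with an ATF3-Ctrl peak was 82.0% when the overlap had to cover 0.5 of the narrower peak and 60.8% with a score of at least 20 in that list. For ATF3-CPT these were 85.4% and 78.9%, and 93.4% with centers within 200 bp. The median ratio of ATF3-Ctrl over ATF3-KO was 2.84 per bp of window, 1.71 by score, 2.12 (2.125) over members with a score of at least 20 and 1.62 with unmatched members set to the threshold of the wild-type list. The ratio of ATF3-CPT over ATF3-KO was 3.33, 1.88, 2.26 and 1.99 in the same order. The core share was 10.2% in 500 bp around the center and 21.9% with 1 mismatch allowed. The median distance to the TSS was 60 bp with one TSS per gene. Leaving out the 44 members that overlapped a p53 peak, an alternative chosen like that for unmatched members after seeing the data, moved none of the values it was run on beyond the main interval.

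Each condition is 1 library, so the spread between cultures is unknown, and no library was left out. The planned removal of soft-masked repeats was not run, because the reference used has no soft-masking. No paired analysis was possible because each group holds 1 library and the result comes from no test. At the median of 14 tags the interval of a single ratio is wide, which limits most statements to groups of peaks.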
